A study of Mus musculus with 8 samples.

Results

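Oxidative phosphorylation (OXPHOS) is carried out by 5 enzyme complexes of the inner mitochondrial membrane, and the genes described here are those of the nucleus that encode their subunits. Members were the protein-coding genes whose mouse GENCODE symbol starts with Nduf, Uqcr, Atp5 or Cox4 to Cox8, or is *Sdha*, *Sdhb*, *Sdhc*, *Sdhd* or *Cyc1*. The rule found 95 of the 55385 genes in the count table. They were divided into 36 genes of complex I, 4 of complex II, 9 of complex III, 20 of complex IV and 17 of complex V. Another 9 genes carry a matching symbol but encode associated factors (*Ndufaf1* to *Ndufaf8*, which are chaperones or modifiers in the assembly of complex I, and *Atp5s*). *Ndufa4* and *Ndufa4l2* were counted in complex IV, where the *Ndufa4* protein has been located, although their names were given for complex I. After a filter on low counts 91 members were tested. *Cox6a2*, *Cox8b* and *Cox8c*, muscle or testis isoforms of complex IV, had at most 13 counts in any library, and a duplicate annotation of *Atp5o* (ENSMUSG00000116933) had 0 counts in all 8 libraries.

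Complex I (NADH dehydrogenase) and complex II (succinate dehydrogenase) pass electrons to ubiquinone, complex III hands them to cytochrome c, and complex IV (cytochrome c oxidase) passes them on to oxygen. Complexes I, III and IV pump protons, and complex V (ATP synthase) lets the protons flow back and makes ATP. Complex II is wholly nuclear-encoded, whereas the others also hold subunits made from mitochondrial DNA. Several subunits of complexes IV and V are encoded by alternative genes whose use differs between tissues or with oxygen supply, and pluripotent cells are known for a high rate of glycolysis beside respiration.

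The data came from R1 mESCs, a wild-type mouse embryonic stem cell line, grown in N2B27 medium with 2i (kinase inhibitors) and LIF on coated plates. Cells were infected for 2 days with lentivirus carrying one hairpin and then selected for 3 days with puromycin, so that each library is a mixed population of transduced cells and not a clone. The groups were shRNA1 (3 biological replicates), which targets the 3′ UTR of *Eftud2*, shRNA2 (3 biological replicates), which targets its coding sequence, and nt-shRNA (2 biological replicates), a non-targeting control given the same infection and selection. *Eftud2* encodes a GTPase of the U5 snRNP of the spliceosome, and poly(A)-selected RNA of each culture was sequenced as paired reads. The comparison asks how the transcripts of each complex stood after partial loss of this splicing factor.

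Total counts ran from 19569525 to 29871048 per library. Levels are given as CPM (counts relative to a library total adjusted by TMM, a normalization that assumes most genes are unchanged), and 3 counts correspond to at most 0.148 CPM. Each difference was tested with edgeR's quasi-likelihood test over 17445 genes, and a gene was called where the Benjamini-Hochberg adjusted p was under 0.05. *Eftud2* itself stood at 262.0 and 255.4 CPM in the nt-shRNA libraries, 231.6, 228.9 and 225.1 CPM with shRNA1, and 197.9, 201.9 and 234.5 CPM with shRNA2. Thus 6 of 6 knockdown (KD) libraries had less *Eftud2* than either control. In edgeR the difference on the log2 scale came to -0.18 for shRNA1 (SE 0.0678, adjusted p = 0.0515 with edgeR) and -0.29 for shRNA2 (SE 0.0678, adjusted p = 0.00122 with edgeR). Over all tested genes, 30.2% with shRNA1 and 36.0% with shRNA2 had every library below both controls. By qPCR the study reported larger falls of *Eftud2* with both hairpins, and by western blot less EFTUD2 protein. All 10 markers of pluripotent cells exceeded 1 CPM on average, and their summed level was 4442 to 4511 CPM with nt-shRNA, 4959 to 5129 CPM with shRNA1 and 5936 to 6104 CPM with shRNA2. Summed markers of germ layers and extraembryonic lineages (9 of 13 over 1 CPM) ran from 109.9 to 112.4, from 88.8 to 100.3 and from 66.8 to 70.8 CPM in the same order of groups. Fibroblast markers (4 of 5 over 1 CPM) ran from 21.1 to 23.0, from 22.3 to 25 and from 15.4 to 19.2 CPM, and markers of two-cell-stage-like cells (6 of 7 over 1 CPM) from 18.4 to 23.5, from 85.5 to 115.7 and from 85.7 to 103.6 CPM. The groups did not overlap in the pluripotency and germ layer sums, the two-cell sums were above the controls but overlapped between the hairpins, and the fibroblast sums were lower with shRNA2 but overlapped between shRNA1 and the controls. The part of these markers in the OXPHOS values was not tested. In bulk RNA, fewer cells that express a gene and less RNA per cell cannot be told apart.

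Most OXPHOS genes that changed were lower after *Eftud2* KD, by modest amounts, with a few large falls among alternative isoforms. With shRNA1, 38 of 91 members were lower and 4 higher than with nt-shRNA, whereas over all tested genes 17.1% were lower and 13.8% higher. With shRNA2, 44 members were lower and 6 higher, against 28.7% and 27.2% of all tested genes. The members were more abundant than most genes, with a median of 99.2 CPM with nt-shRNA against 14.6 for all tested genes. Small differences are easier to call, or to separate from the controls, at such levels. The part of this in the shares was not tested. The counts of higher members were the less stable: the 4 with shRNA1 became 0 in edgeR without shRNA1 replicate 1 or nt-shRNA replicate 2, 1 without shRNA1 replicate 2 or nt-shRNA replicate 1 and 2 with GC content offsets, and the 6 with shRNA2 became 10 without shRNA1 replicate 3 and 10 to 12 with the stricter count filter, length or GC offsets or the replicate block. The median log2 fold change of the members was -0.17 with shRNA1 and -0.16 with shRNA2, beside -0.01 and 0.00 for all tested genes. A fall of more than 2-fold was fitted for 2 members with shRNA1 (*Ndufa4l2* and *Cox4i2*) and for 3 with shRNA2 (these and *Cox7a1*), and no member rose by as much. Over all tested genes 1.3% fell and 4.64% rose by more than 2-fold with shRNA1, and 6.91% and 7.9% with shRNA2, so such falls were no more frequent among the members with shRNA2. All 3 shRNA1 libraries lay below both controls for 58 of the 91 members (30.2% of all tested genes did so), and all 3 shRNA2 libraries for 53 (36.0% of all tested genes). Above both controls lay all shRNA1 libraries for 6 members and all shRNA2 libraries for 13, against 26.6% and 35.4% of all tested genes. The hairpins share the 2 control libraries, so their calls are given side by side only.

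**Figure D1:**
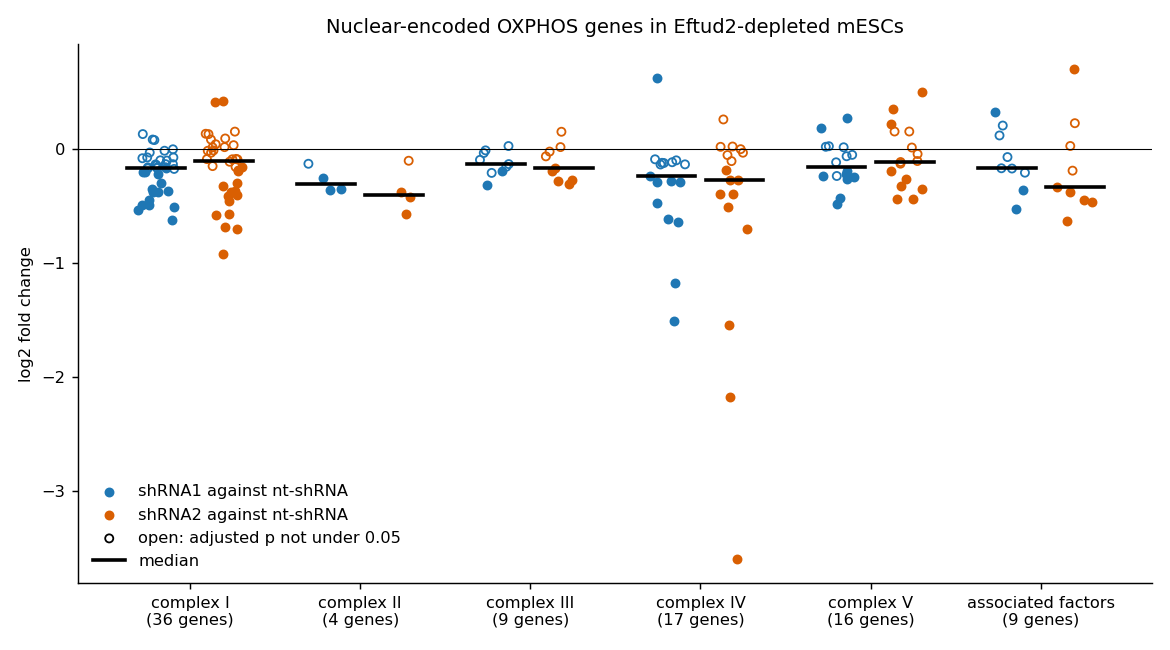
Log2 fold change of each of the 91 tested members against nt-shRNA (y axis), by complex (x axis), for shRNA1 (blue) and shRNA2 (orange). Filled points passed an adjusted p of 0.05, open points did not, and black bars are medians. Most points lie between -1 and 0, the medians of every complex are below 0, and the lowest points are *Ndufa4l2*, *Cox4i2* and *Cox7a1* in complex IV.

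The size of the shift depended on the scaling. With shRNA2, 4748 genes were called higher and 5010 lower, which is most of the 17445 tested. The assumption of TMM that most genes are unchanged was thus not met there at this threshold. Without TMM factors, counts per library total alone moved the median of all tested genes to 0.11 with shRNA1 and 0.09 with shRNA2, and the members' medians became -0.053 and -0.069. The calls were then 23 lower and 6 higher with shRNA1, and 35 lower and 15 higher with shRNA2. Of all 17445 tested genes, 1718 were then lower and 4098 higher with shRNA1, and 4080 lower and 5845 higher with shRNA2. A change of scaling shifts all genes of a comparison by nearly the same amount. The place of the members' medians below that of all genes could therefore not be tested in this way. Leaving out nt-shRNA replicate 1 left 23 lower and 1 higher members with shRNA1 and 32 lower and 6 higher with shRNA2. Lower calls over all genes went from 2981 to 1700 and from 5010 to 4109 at the same time. OXPHOS transcripts are short (median 1675 bases of exon, against 3755 for all tested genes), and with offsets for gene length the medians were -0.12 with either hairpin. Among cytosolic ribosomal proteins, a list outside OXPHOS, 77 of 98 tested genes were lower with shRNA1 and 71 of 98 with shRNA2 (17.1% and 28.7% of all tested genes).

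Summed over their genes, the levels of all 5 complexes stood lower in the KD libraries. Complex I summed to 3039 and 2931 CPM with nt-shRNA, 2526, 2503 and 2661 CPM with shRNA1, and 2585, 2741 and 2595 CPM with shRNA2, a mean 14.1% and 11.5% below the control. Complex II summed to 708.6 and 693.6 CPM in the controls, 585.0, 560.2 and 577.1 CPM with shRNA1, and 535.7, 552.1 and 544.3 CPM with shRNA2, or 18.1% and 22.4% below. This was the largest relative difference of the 5 complexes with either hairpin. Complex III differed least, at 1509 and 1400 CPM in the controls, 1326, 1290 and 1371 CPM with shRNA1, and 1305, 1373 and 1322 CPM with shRNA2, or 8.63% and 8.34% below. Complex IV summed to 2928 and 2765 CPM in the controls, 2426, 2338 and 2552 CPM with shRNA1, and 2411, 2581 and 2441 CPM with shRNA2, or 14.3% and 13.0% below. Complex V, the most abundant, summed to 5440 and 5223 CPM in the controls, 4825, 4583 and 4780 CPM with shRNA1, and 4747, 4931 and 4734 CPM with shRNA2, or 11.3% and 9.89% below. In each of these sums every KD library was below both controls. By library size alone the same differences were 7.05% and 5.90% for complex I, 11.4% and 17.5% for complex II, 1.09% and 2.47% for complex III, 7.28% and 7.40% for complex IV, and 4.001% and 4.145% for complex V, and for complex III the groups then overlapped.

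**Figure D2:**
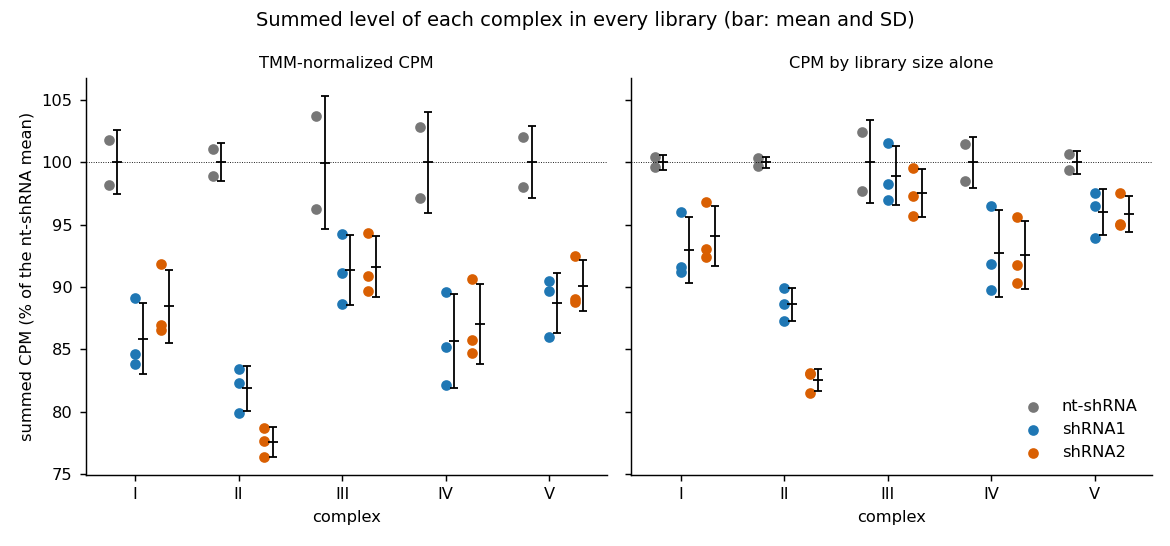
Summed CPM of each complex (x axis) in every library, as a percentage of the nt-shRNA mean (y axis, not starting at 0), scaled by TMM (left) or by library size alone (right), with nt-shRNA in gray, shRNA1 in blue and shRNA2 in orange. Points are libraries and bars are mean and SD. Complex II is lowest under both scalings, and complex III overlaps with the control by library size alone.

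In complex I, 15 of 36 genes were lower and 0 higher with shRNA1, and 15 were lower and 2 higher with shRNA2, with medians of -0.17 and -0.10. Of all tested genes, 17.1% were lower and 13.8% higher with shRNA1, and 28.7% and 27.2% with shRNA2. The median of -0.10 was -0.036 with GC content offsets. The 0 higher with shRNA1 came from edgeR, and it was also 0 at an unadjusted p under 0.05 and with DESeq2. Accessory subunits gave the largest falls. *Ndufv3*, a small regulatory subunit of the NADH-oxidizing module (chromosome 17, 31520115 to 31531331), had 71.8 and 78.6 CPM with nt-shRNA, 46.9, 43.6 and 55.8 CPM with shRNA1, and 38.5, 38.5 and 42.3 CPM with shRNA2. The 3 groups did not overlap. Its log2 fold change was -0.62 with shRNA1 (SE 0.0874, adjusted p = 3.2e-05 with edgeR) and -0.92 with shRNA2 (SE 0.0885, adjusted p = 6.5e-08), and shRNA2 was lower than shRNA1 by -0.30 (adjusted p = 0.00854, or 0.0637 without shRNA1 replicate 3). *Ndufa6*, an accessory subunit with a LYR motif that binds the acyl carrier protein, had 147.6 and 144.2 CPM with nt-shRNA, 106.5, 109.0 and 121.2 CPM with shRNA1, and 87.2, 85.8 and 96.1 CPM with shRNA2. It also fell in steps without overlap, by log2 fold changes of -0.38 (SE 0.068) and -0.70 (SE 0.0683), with -0.33 between the hairpins (adjusted p = 0.0006 with edgeR). *Ndufa7*, an accessory subunit, had 208.2 and 201.0 CPM in the controls, 133.4, 130.4 and 157.7 CPM with shRNA1, and 120.7, 133.8 and 127.1 CPM with shRNA2. The KD libraries were all below the controls but the hairpins overlapped, and the log2 fold changes were -0.54 and -0.69.

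The core subunits, which carry the flavin and the iron-sulfur clusters or bind ubiquinone, did not move as one. *Ndufs7*, which holds the last iron-sulfur cluster before ubiquinone, had 55.1 and 52.6 CPM with nt-shRNA, 35.2, 35.8 and 43.7 CPM with shRNA1, and 37.8, 39.5 and 40.6 CPM with shRNA2. It fell with both hairpins, by -0.49 (SE 0.0855, adjusted p = 0.00027 with edgeR) and -0.45 (SE 0.0858, adjusted p = 0.00018). *Ndufv1*, the subunit that binds NADH and flavin, was called lower with both, at -0.17 (adjusted p = 0.0398) and -0.16 (adjusted p = 0.03), but the call was lost under 13 of 19 alternative settings with shRNA1 and 9 of 19 with shRNA2, and 5 and 3 of these, respectively, left out 1 library, nt-shRNA replicate 1 among them. With GC content offsets the shRNA2 value turned to 0.014 (0.025 with the replicate block as well). *Ndufs8*, an iron-sulfur subunit of the module that reduces ubiquinone, fell with shRNA1 (-0.30, adjusted p = 0.0103 with edgeR), though not without nt-shRNA replicate 1 (adjusted p = 0.164) or shRNA1 replicate 2, and its shRNA2 value of -0.16 did not pass. *Ndufs1*, the largest iron-sulfur subunit, had 124.0 and 124.9 CPM in the controls, 128.5, 126.7 and 114.2 CPM with shRNA1, and 134.3, 138.1 and 136.9 CPM with shRNA2. Its shRNA2 libraries were the highest, although the difference of 0.13 from nt-shRNA did not pass (adjusted p = 0.0806), though it did under 4 of 19 alternatives. *Ndufs3* (-0.17 and -0.09) and *Ndufv2* (-0.10 and -0.03) did not pass with either hairpin.

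A pair of complex I genes stood the other way with shRNA2. *Ndufa11*, a membrane-arm subunit needed for assembly, had 38.9 and 34.0 CPM with nt-shRNA, 38.6, 38.8 and 42.0 CPM with shRNA1, and 49.3, 50.8 and 46.4 CPM with shRNA2. *Ndufa5*, a matrix-arm subunit, had 37.2 and 38.8 CPM, 40.6, 39.3 and 40.6 CPM, and 50.1, 54.1 and 47.2 CPM in the same order. In both genes the shRNA2 libraries were above all the others. Their log2 fold changes with shRNA2 were 0.42 (SE 0.0797, adjusted p = 0.00018 with edgeR) and 0.41 (SE 0.0753, adjusted p = 0.00013), and both were higher with shRNA2 than with shRNA1, by 0.29 (adjusted p = 0.00361) and 0.33 (adjusted p = 0.00098). The other complex I genes called lower lay between -0.58 and -0.18 with shRNA2, and the 19 genes not called between -0.16 and 0.15. Reads shared with other genes could have been added to or left out of some of these counts, which was not tested. Of the exon bases, 29.98% of *Ndufa13* and 39.0% of *Ndufb6* overlap another annotated gene. Of the 100-base windows of *Ndufb4*, 33.4% recur in *Ndufb4c*.

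**Figure D3:**
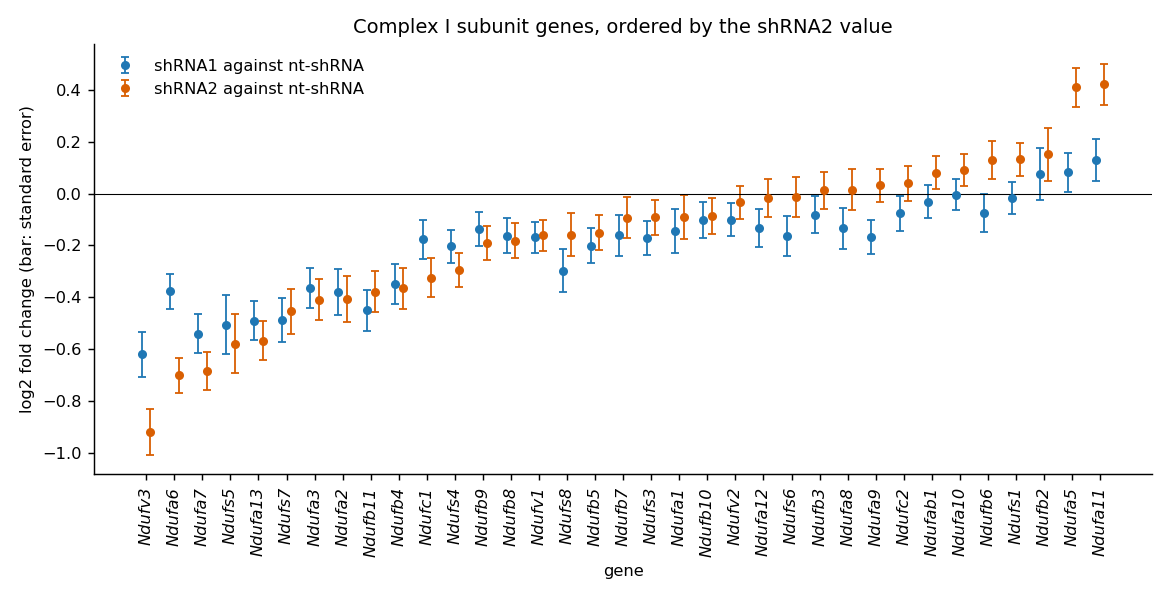
Log2 fold change against nt-shRNA (y axis) of 35 complex I genes (x axis), ordered by the shRNA2 value, for shRNA1 (blue) and shRNA2 (orange); bars are standard errors. *Ndufv3* is lowest with both hairpins, and *Ndufa5* and *Ndufa11* on the right stand near 0.4 with shRNA2 only.

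With TMM scaling, all 4 genes of complex II had every KD library below both controls, and 3 passed the test with each hairpin. For *Sdhd* the margin was narrow (139.3 CPM in shRNA2 replicate 2 against 140.4 in nt-shRNA replicate 2), and by library size alone its groups overlapped. Over all tested genes, 30.2% with shRNA1 and 36.0% with shRNA2 had every library below both controls, and 17.1% and 28.7% were called lower. *Sdha*, the flavoprotein that oxidizes succinate, had 275.4 and 277.3 CPM with nt-shRNA, 220.8, 212.5 and 217.1 CPM with shRNA1, and 211.8, 218.3 and 206.6 CPM with shRNA2. It fell by 21.6% with shRNA1 and 23.2% with shRNA2 (log2 fold changes -0.35 and -0.38, each with SE 0.0564, adjusted p = 0.00012 and 1.3e-05 with edgeR). *Sdhb*, the iron-sulfur subunit, had 123.0 and 120.8 CPM, 104.0, 98.3 and 103.1 CPM, and 86.6, 89.5 and 96.3 CPM in the same order. The groups did not overlap, the log2 fold changes were -0.26 (adjusted p = 0.00386, or 0.0798 without nt-shRNA replicate 1) and -0.42 (adjusted p = 1.2e-05), and the hairpins differed by -0.17 (adjusted p = 0.0298), a call that was lost when shRNA1 replicate 1 or 3 or shRNA2 replicate 1 or 2 was left out. *Sdhc*, a membrane anchor that binds heme and ubiquinone (chromosome 1, 171127165 to 171150603), had 162.6 and 155.1 CPM with nt-shRNA, 123.5, 122.5 and 125.9 CPM with shRNA1, and 102.4, 105.0 and 113.7 CPM with shRNA2. It fell most of the 4, by 21.95% and 32.63% (log2 fold changes -0.36 and -0.57, adjusted p = 0.00022 and 2.7e-07 with edgeR), and was lower with shRNA2 than with shRNA1 by -0.21 (adjusted p = 0.00643). *Sdhd*, the other anchor, was the exception: 147.7 and 140.4 CPM in the controls stood against 136.7, 126.9 and 131.0 CPM with shRNA1 and 134.9, 139.3 and 127.7 CPM with shRNA2, and its differences of -0.13 and -0.10 did not pass (adjusted p = 0.118 and 0.161 with edgeR).

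In complex III, 2 of 9 genes were lower with shRNA1 (22.2%, near the 17.1% of all tested genes) and 5 with shRNA2 (against 28.7%), and 0 were higher. The medians were -0.13 and -0.17, the former -0.082 without nt-shRNA replicate 1, and with GC content offsets they were -0.075 and -0.078. Without nt-shRNA replicate 1, the shRNA1 calls of *Cyc1* and *Uqcr10* were lost. The shRNA2 calls of *Uqcr10*, *Uqcrq*, *Uqcr11* and *Uqcrc2* were lost too. *Uqcr11* and *Uqcrc2*, lower with shRNA2 only, lost the call under 10 and 6 of 19 alternatives. At an unadjusted p under 0.05 edgeR gave 0 higher with shRNA1 and 1 with shRNA2, and DESeq2 called 0 with either. *Cyc1*, the cytochrome c1 heme subunit, had 249.2 and 222.1 CPM in the controls, 200.1, 203.0 and 215.4 CPM with shRNA1, and 192.9, 196.0 and 194.2 CPM with shRNA2. All KD libraries were lower, the shRNA2 fall was -0.28 (SE 0.0624, adjusted p = 0.0009 with edgeR, but 0.327 with GC content offsets and 0.504 with these and the replicate block), and the shRNA1 fall of -0.19 (adjusted p = 0.0244) was lost under 10 of 19 alternatives, among them the omission of shRNA1 replicate 1 or 2 or of nt-shRNA replicate 1. *Uqcr10*, a small subunit beside cytochrome c1, had 152.3 and 137.2 CPM, 112.2, 110.2 and 126.3 CPM, and 120.3, 125.8 and 112.5 CPM in the same order. It fell with both hairpins, by -0.31 (adjusted p = 0.00253) and -0.28 (adjusted p = 0.00305), although neither call held without nt-shRNA replicate 1 (adjusted p = 0.0826 and 0.0827, the highest over 19 alternatives). *Uqcrq*, a small subunit next to cytochrome b, had 118.9 and 103.0 CPM in the controls, 88.8, 92.1 and 106.3 CPM with shRNA1, and 84.5, 93.1 and 90.7 CPM with shRNA2. It was lower with shRNA2 (-0.31, adjusted p = 0.00265 with edgeR, or 0.0949 without nt-shRNA replicate 1), while its shRNA1 value of -0.21 missed the threshold narrowly (adjusted p = 0.0501) and passed it under 8 of 19 alternatives. *Uqcrfs1*, the Rieske iron-sulfur protein that passes electrons to cytochrome c1, had 113.2 and 105.7 CPM with nt-shRNA, 118.7, 107.2 and 108.2 CPM with shRNA1, and 123.3, 125.9 and 115.1 CPM with shRNA2. All shRNA2 libraries were above the controls, the lowest of them below the highest of shRNA1, and the difference of 0.15 did not pass (adjusted p = 0.0615), though it did under 8 of 19 alternatives (down to 0.00194).

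Complex IV held the largest differences, and these were in genes for alternative isoforms. Of 17 tested genes, 9 were lower and 1 higher with shRNA1, and 10 were lower and 0 higher with shRNA2 (also 0 at an unadjusted p under 0.05 in edgeR, and 0 with DESeq2), with medians of -0.24 and -0.27, the latter -0.18 without nt-shRNA replicate 1. The shares of all tested genes were 17.1% lower and 13.8% higher with shRNA1, and 28.7% and 27.2% with shRNA2. *Ndufa4* and its relative *Ndufa4l2*, which is known as a gene induced by low oxygen, are shown because one of the pair fell steeply while the other did not pass. Their coding sequences, from the GENCODE M21 transcripts, run as follows from start to stop codon, and match at 64.7% of aligned bases.
Ndufa4: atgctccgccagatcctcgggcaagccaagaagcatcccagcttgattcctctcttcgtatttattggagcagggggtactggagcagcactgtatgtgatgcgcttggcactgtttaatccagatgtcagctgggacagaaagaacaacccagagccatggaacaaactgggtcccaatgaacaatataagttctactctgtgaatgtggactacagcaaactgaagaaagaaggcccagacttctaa
Ndufa4l2: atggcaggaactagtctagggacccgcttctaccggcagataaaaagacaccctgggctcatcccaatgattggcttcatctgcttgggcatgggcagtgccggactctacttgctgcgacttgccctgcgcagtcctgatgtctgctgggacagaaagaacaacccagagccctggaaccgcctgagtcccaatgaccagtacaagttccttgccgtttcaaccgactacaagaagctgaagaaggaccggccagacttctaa
No 100-base stretch of either gene was found in another annotated gene. *Ndufa4l2* lies on chromosome 10 from 127514967 to 127517154 (GRCm38). It had 40.8 and 49.3 CPM with nt-shRNA, 13.5, 10.6 and 22.8 CPM with shRNA1, and 3.76, 3.15 and 4.26 CPM with shRNA2. The 3 groups formed separate steps, and the shRNA2 values rested on 81, 70 and 93 counts. It fell 2.84-fold with shRNA1 (log2 fold change -1.51, SE 0.184, adjusted p = 6.5e-06 with edgeR) and 12.1-fold with shRNA2 (-3.60, SE 0.217, adjusted p = 2.2e-10), and shRNA2 was 4.26-fold below shRNA1 (-2.09, SE 0.219, adjusted p = 2.1e-06). *Ndufa4* stayed near its control level in all libraries, at 275.9 and 260.3 CPM with nt-shRNA, 256.7, 247.2 and 246.0 CPM with shRNA1, and 251.3, 269.2 and 254.0 CPM with shRNA2, and its differences of -0.10 and -0.05 did not pass (adjusted p = 0.209 and 0.456), with each called under 2 of 19 alternatives. Per kilobase of exon, *Ndufa4l2* made up 17.5% ± 2.52 (SD, n = 2) of the pair with nt-shRNA, 7.27% ± 2.81 (SD, n = 3) with shRNA1 and 1.79% ± 0.313 (SD, n = 3) with shRNA2.

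*Cox4i2*, the isoform of subunit 4 known from lung and from low oxygen, showed the same order of groups at a much lower level. It had 5.24 and 5.71 CPM with nt-shRNA, 2.30, 1.82 and 3.03 CPM with shRNA1, and 1.07, 0.676 and 1.88 CPM with shRNA2, from 15 to 164 counts per library. The controls were above all KD libraries, whereas the highest shRNA2 library lay above the lowest of shRNA1. It fell 2.26-fold with shRNA1 (log2 fold change -1.17, SE 0.235, adjusted p = 0.00086 with edgeR) and 4.53-fold with shRNA2 (-2.18, SE 0.263, adjusted p = 1.1e-06). The hairpins differed by -1.004 (adjusted p = 0.00811), which was lost when shRNA1 replicate 3 or shRNA2 replicate 2 was left out (up to 0.066). *Cox4i1*, the general isoform, had 585.6 and 533.9 CPM, 488.0, 497.7 and 556.6 CPM, and 544.5, 596.4 and 559.3 CPM in the order of nt-shRNA, shRNA1 and shRNA2. The groups overlapped, and neither value passed (-0.12 and 0.02), though they did under 1 and 2 of 19 alternatives. *Cox4i2* was 1.90% of the pair per kilobase in the controls, 0.897% with shRNA1 and 0.421% with shRNA2.

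*Cox7a1*, the heart and skeletal muscle isoform of subunit 7a, lies on chromosome 7 from 30184144 to 30186078. It had 18.8 and 20.1 CPM with nt-shRNA, 13.9, 11.1 and 13.0 CPM with shRNA1, and 5.53, 6.04 and 8.39 CPM with shRNA2. No group overlapped another. It fell 1.53-fold with shRNA1 (log2 fold change -0.62, SE 0.134, adjusted p = 0.00167 with edgeR) and 2.92-fold with shRNA2 (-1.55, SE 0.142, adjusted p = 3.6e-08), with -0.93 between the hairpins (adjusted p = 5e-05). *Cox7a2*, the ubiquitous isoform, was at 135.4 and 133.4 CPM, 131.5, 122.4 and 124.6 CPM, and 133.1, 145.1 and 130.7 CPM, and did not pass (-0.09 and 0.02). The share of *Cox7a1* per kilobase was 20.3% ± 0.947 (SD, n = 2) with nt-shRNA, 15.0% ± 1.07 (SD, n = 3) with shRNA1 and 7.95% ± 1.93 (SD, n = 3) with shRNA2. *Cox7a2l*, a related protein that joins complexes III and IV into supercomplexes, was lower with shRNA2 only (-0.28, adjusted p = 0.00139), and this call was lost without nt-shRNA replicate 1 (adjusted p = 0.078).

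*Cox6b2*, the testis isoform of subunit 6b, had 56.1 and 56.9 CPM with nt-shRNA, 32.5, 35.3 and 40.2 CPM with shRNA1, and 33.1, 33.7 and 37.2 CPM with shRNA2. All KD libraries were below the controls by a similar margin with both hairpins, at -0.65 (SE 0.0846, adjusted p = 1.5e-05 with edgeR) and -0.70 (SE 0.0851, adjusted p = 1.1e-06). Its common counterpart *Cox6b1* fell less, from 194.6 and 187.6 CPM to 159.0, 146.2 and 164.9 CPM and to 155.0, 166.7 and 152.1 CPM (-0.29 and -0.27, adjusted p = 0.00241 and 0.00134). *Cox7b2*, a testis-type isoform at 1.91 and 2.19 CPM in the controls, had 3.24, 3.60 and 2.74 CPM with shRNA1 and 2.56, 2.12 and 2.71 CPM with shRNA2. It rested on 47 to 77 counts, was called higher with shRNA1 (0.62, adjusted p = 0.0219) but lost the call under 7 of 19 alternatives, among them DESeq2 and the omission of shRNA1 replicate 1 or 2 or of either control, and did not pass with shRNA2 (0.26, adjusted p = 0.299). *Cox7b*, the common isoform, fell with both hairpins, from 202.4 and 200.7 CPM to 169.4, 161.7 and 162.8 CPM with shRNA1 and to 149.7, 154.3 and 154.9 CPM with shRNA2 (-0.29 and -0.40, adjusted p = 0.00067 and 8.1e-06).

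**Figure D4:**
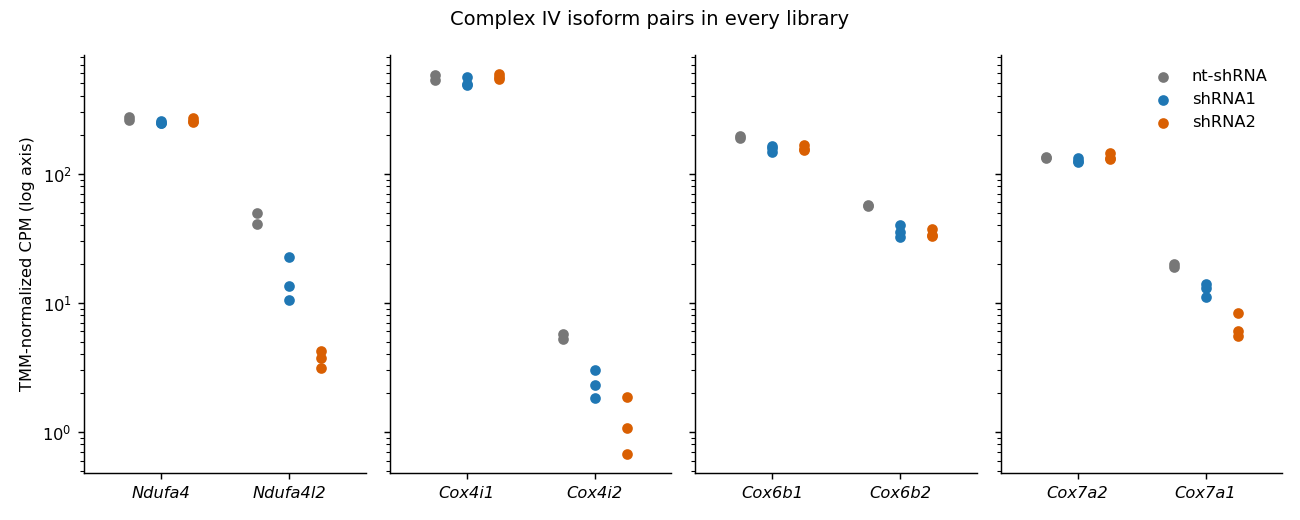
TMM-normalized CPM in every library (y axis, log scale) of 4 complex IV pairs, each with the common gene on the left and the alternative isoform on the right; nt-shRNA is gray, shRNA1 blue and shRNA2 orange. *Ndufa4l2*, *Cox4i2* and *Cox7a1* descend from nt-shRNA to shRNA1 to shRNA2 while *Ndufa4*, *Cox4i1* and *Cox7a2* stay level.

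Among the other complex IV genes, *Cox8a*, the common isoform of the smallest subunit, had 303.3 and 270.0 CPM with nt-shRNA, 198.4, 184.4 and 237.0 CPM with shRNA1, and 198.3, 217.1 and 187.1 CPM with shRNA2. It fell by 27.9% and 29.9% (log2 fold changes -0.47 and -0.51, SE 0.0867, adjusted p = 0.00042 and 5.7e-05 with edgeR). *Cox6a1*, the common isoform of subunit 6a, had 226.7 and 210.5 CPM, 167.3, 166.2 and 202.7 CPM, and 159.6, 170.4 and 167.1 CPM, and fell by -0.29 (adjusted p = 0.00692, or 0.108 without nt-shRNA replicate 1) and -0.40 (adjusted p = 0.00019). In both genes shRNA1 replicate 3 was the shRNA1 library nearest to the controls. *Cox7c* was also lower with both, and *Cox5a*, *Cox5b* and *Cox6c* passed with neither. The *Cox7c* calls were lost under 5 of 19 alternatives with shRNA1 and 6 of 19 with shRNA2. Library size alone, gene length offsets and the omission of nt-shRNA replicate 1 were among them for both hairpins. Among the genes of complex IV, *Cox8a* had the highest level per kilobase in the controls (463.1 CPM per kb) and *Cox7b2* the lowest of those tested (3.78 CPM per kb).

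In complex V, 7 of 16 tested genes were lower and 2 higher with shRNA1, and 6 were lower and 3 higher with shRNA2, with medians of -0.16 and -0.11. The shRNA2 median was -0.066 without shRNA2 replicate 1 and -0.058 with gene length offsets. Without nt-shRNA replicate 1, the shRNA1 calls of *Atp5b*, *Atp5d* and *Atp5j2* (lower) and of *Atp5g3* and *Atp5l* (higher) were lost. Over all tested genes 17.1% were lower and 13.8% higher with shRNA1, and 28.7% and 27.2% with shRNA2, so that the shares of higher members (12.5% and 18.75%) were no larger than these and the share lower with shRNA2 (37.5%) was not far above. The 5 genes of the catalytic head and its shaft (*Atp5a1*, *Atp5b*, *Atp5c1*, *Atp5d* and *Atp5e*) were called lower with both hairpins. Among them *Atp5d* lost its call under 7 of 19 alternatives with shRNA1 and 2 of 19 with shRNA2. Genes of the membrane sector went in both directions, among them *Atp5g2* lower and *Atp5g3* and *Atp5l* higher with both. *Atp5a1* and *Atp5b*, the α and β subunits that form the catalytic sites, were the members with the most counts. *Atp5b* had 2127 and 2016 CPM with nt-shRNA, 1864, 1741 and 1822 CPM with shRNA1, and 1788, 1860 and 1775 CPM with shRNA2. *Atp5a1* had 1179 and 1147 CPM, 970.9, 949.6 and 1012 CPM, and 954.5, 983.4 and 968.4 CPM in the same order. Every KD library of both genes was below both controls. The log2 fold changes were -0.25 and -0.26 for *Atp5a1* (adjusted p = 0.00297 and 0.00079 with edgeR, each lost under 1 of 19 alternatives, at 0.0582 and 0.0554) and -0.20 and -0.20 for *Atp5b* (adjusted p = 0.0191 and 0.00983). For *Atp5b* the calls were lost under 7 of 19 alternatives with shRNA1 and 4 of 19 with shRNA2, among them, for both, library size alone and the omission of nt-shRNA replicate 1, and for shRNA1 that of shRNA1 replicate 2. *Atp5c1*, the γ subunit of the central shaft, fell by -0.26 (adjusted p = 0.00315, or 0.065 with library size alone) and -0.36 (adjusted p = 7.3e-05). *Atp5e*, the ε subunit at the foot of the shaft, fell from 74.96 and 69.08 CPM to 50.1, 51.8 and 58.5 CPM with shRNA1 and to 49.7, 56.0 and 53.1 CPM with shRNA2 (-0.43 and -0.44, adjusted p = 0.00038 and 8.6e-05).

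The c subunit, the ring that turns as protons pass, is encoded by 3 genes whose mature proteins are the same. The last 75 codons of *Atp5g1*, *Atp5g2* and *Atp5g3*, which encode the mature protein, are shown because these genes moved in different directions. They come from the GENCODE M21 transcripts, without the stop codon, and capitals mark the 57 of 225 positions at which the 3 genes are not identical.
Atp5g1: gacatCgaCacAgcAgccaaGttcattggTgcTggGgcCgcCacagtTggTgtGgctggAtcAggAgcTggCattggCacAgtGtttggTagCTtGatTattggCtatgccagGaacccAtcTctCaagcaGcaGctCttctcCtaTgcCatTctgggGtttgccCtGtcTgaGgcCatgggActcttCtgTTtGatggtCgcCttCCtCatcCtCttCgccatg
Atp5g2: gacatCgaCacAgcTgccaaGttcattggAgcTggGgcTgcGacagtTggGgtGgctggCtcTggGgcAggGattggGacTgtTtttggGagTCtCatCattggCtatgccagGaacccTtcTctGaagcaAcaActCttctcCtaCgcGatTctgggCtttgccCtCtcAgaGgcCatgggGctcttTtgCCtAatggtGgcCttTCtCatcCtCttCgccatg
Atp5g3: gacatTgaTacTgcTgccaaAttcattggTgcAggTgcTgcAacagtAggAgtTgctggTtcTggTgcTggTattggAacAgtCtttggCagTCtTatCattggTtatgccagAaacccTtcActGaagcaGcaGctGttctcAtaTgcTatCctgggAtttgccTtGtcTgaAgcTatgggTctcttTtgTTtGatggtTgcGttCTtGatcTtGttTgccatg
Translated, these stretches were identical at all 75 residues in each pair, although *Atp5g1* and *Atp5g2* matched at 191 of 225 bases, *Atp5g1* and *Atp5g3* at 180, and *Atp5g2* and *Atp5g3* at 177. The codons before them, which encode the import signals that are cut off, matched at 46.6%, 50.8% and 39.4% of aligned residues. The capitals are spread along the whole stretch. Of the 100-base windows of each whole gene, 6.22% of *Atp5g1*, 4.28% of *Atp5g2* and 0% of *Atp5g3* recur in another annotated gene.

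*Atp5g2* (chromosome 15, 102662864 to 102672352) had 130.6 and 127.7 CPM with nt-shRNA, 87.8, 81.1 and 107.7 CPM with shRNA1, and 94.2, 101.4 and 89.3 CPM with shRNA2. All KD libraries were below the controls, and the log2 fold changes were -0.48 (SE 0.0878, adjusted p = 0.00037 with edgeR) and -0.44 (SE 0.088, adjusted p = 0.00029). *Atp5g3* (chromosome 2, 73908447 to 73911326) went the other way, with 246.2 and 234.7 CPM in the controls, 278.5, 281.8 and 260.7 CPM with shRNA1, and 304.4, 315.3 and 301.9 CPM with shRNA2. The 3 groups did not overlap. It rose by 0.19 with shRNA1 (SE 0.0599, adjusted p = 0.0234), a call lost when either control or shRNA1 replicate 1 or 2 was left out, and by 0.35 with shRNA2 (SE 0.0601, adjusted p = 6.1e-05). *Atp5g1* (chromosome 11, 96068852 to 96075670) had 141.3 and 130.2 CPM, 131.9, 134.3 and 144.8 CPM, and 156.9, 166.9 and 151.2 CPM in the order of nt-shRNA, shRNA1 and shRNA2. It rose with shRNA2 only (0.22, adjusted p = 0.00781), and not without nt-shRNA replicate 2 (adjusted p = 0.141). Levels per kilobase divide by all annotated exon bases, 4912 for *Atp5g1*, 1675 for *Atp5g2* and 2181 for *Atp5g3*. Their coding sequences have 411, 441 and 426 bases. The shares and sums per kilobase therefore depend on the annotation, and *Atp5g1* weighs least in them. On this scale, *Atp5g2* made up 35.9% ± 0.520 (SD, n = 2) of the 3 genes with nt-shRNA, 26.4% ± 3.38 (SD, n = 3) with shRNA1 and 24.7% ± 0.678 (SD, n = 3) with shRNA2. The share of *Atp5g3* was 51.3% ± 0.171, 60.3% ± 3.72 and 61.3% ± 0.869 in the same order. Their sum was 219.6 and 210.4 CPM per kb with nt-shRNA, 207.0, 204.9 and 213.3 with shRNA1, and 227.7, 239.1 and 222.5 with shRNA2, so that the total overlapped between shRNA1 and the control while the shares of *Atp5g2* and *Atp5g3* did not.

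**Figure D5:**
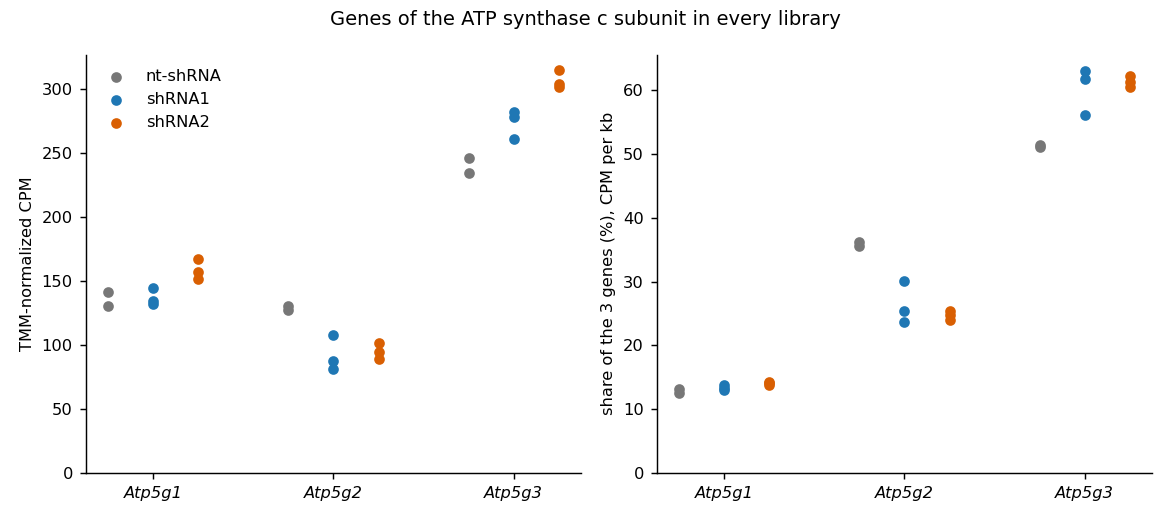
CPM (left y axis) and share of the 3 genes per kilobase in percent (right y axis) of *Atp5g1*, *Atp5g2* and *Atp5g3* (x axes) in every library, with nt-shRNA in gray, shRNA1 in blue and shRNA2 in orange. *Atp5g2* is lower and *Atp5g3* higher in all KD libraries, and the share of *Atp5g3* moves from about 51.3% to 60.3% and 61.3%.

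*Atp5l*, subunit g of the membrane stator, had 34.0 and 31.5 CPM with nt-shRNA, 43.4, 39.7 and 35.4 CPM with shRNA1, and 47.7, 47.2 and 43.3 CPM with shRNA2. The controls were the lowest libraries. It rose by 0.27 with shRNA1 (adjusted p = 0.0243, up to 0.199 over 19 alternatives, with the call lost under 6 of them, among them the omission of shRNA1 replicate 1 or 2 or of either control) and by 0.49 with shRNA2 (adjusted p = 8.8e-05, at most 0.00439). Of the rest of complex V, *Atp5d* was lower with both hairpins and *Atp5j2* with shRNA1 only, while *Atp5f1*, *Atp5h*, *Atp5j*, *Atp5k*, *Atp5mpl* and *Atp5o* passed with neither. The shRNA1 call of *Atp5d* was lost under 7 of 19 alternatives (adjusted p up to 0.342 with edgeR), among them the omission of shRNA1 replicate 1 or 2. Its shRNA2 call was lost under 2, both with GC content offsets. That of *Atp5j2* was lost under 4 of 19, the omission of either control among them. Of the exon bases of *Atp5o*, 47.9% overlap other annotated genes.

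Of the 9 associated factors, 1 was higher and 2 lower with shRNA1 (13.8% and 17.1% of all tested genes), and 1 was higher and 5 lower with shRNA2 (27.2% and 28.7%). *Ndufaf4*, an assembly factor of the complex I matrix arm, had 24.3 and 21.3 CPM with nt-shRNA, 30.4, 29.2 and 26.4 CPM with shRNA1, and 39.0, 38.7 and 33.8 CPM with shRNA2. The groups formed rising steps without overlap. It rose by 25.5% with shRNA1 (log2 fold change 0.33, adjusted p = 0.0124 with edgeR, lost under 3 of 19 alternatives, among them the omission of shRNA1 replicate 1 or nt-shRNA replicate 2) and by 63.0% with shRNA2 (0.70, SE 0.0938, adjusted p = 3.7e-06), and was higher with shRNA2 than with shRNA1 by 0.38 (adjusted p = 0.00166). *Ndufaf6*, a factor for the membrane arm, had 29.9 and 27.0 CPM, 20.1, 19.2 and 19.9 CPM, and 19.1, 17.8 and 18.3 CPM in the order of nt-shRNA, shRNA1 and shRNA2, and fell by -0.53 (adjusted p = 0.00015) and -0.63 (adjusted p = 6.2e-06). *Ndufaf5* and *Ndufaf7*, enzymes that modify arginines of complex I subunits, were lower with shRNA2 (-0.47, adjusted p = 0.00081, and -0.45, adjusted p = 4.6e-05), and their shRNA1 values of -0.21 and -0.17 did not pass. The remaining calls were less stable. *Ndufaf3*, another assembly factor, was lower with shRNA1 (-0.36, adjusted p = 0.0235 with edgeR) and shRNA2 (-0.34, adjusted p = 0.0182), lost under 7 and 6 of 19 alternatives, and *Atp5s* was lower with shRNA2 (-0.37, adjusted p = 0.0262), lost under 5, with the omission of either control among them in each case, while *Ndufaf1* and *Ndufaf8* passed with neither. *Ndufaf2* passed with neither hairpin and is uncertain, since 80.5% of its 100-base windows recur in other annotated genes.

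Set directly against each other, the hairpins differed in 18 members, 9 higher and 9 lower with shRNA2 (16.9% and 18.7% of all tested genes). The 9 higher became 5 without shRNA2 replicate 1, 4 without shRNA2 replicate 2 and 15 with the replicate block and GC content offsets, and the 9 lower became 14 with GC content offsets, with or without the block. The higher ones were 5 genes of complex I (*Ndufa5*, *Ndufa11*, *Ndufa9*, *Ndufb6* and *Ndufs1*), *Atp5g1*, *Atp5g3* and *Atp5l* of complex V, and *Ndufaf4*. The lower ones were *Ndufa4l2*, *Cox4i2* and *Cox7a1* of complex IV, *Ndufa6* and *Ndufv3* of complex I, *Sdhb* and *Sdhc* of complex II, and *Ndufaf5* and *Ndufaf7*. In complex III edgeR called 0 genes (1 higher at an unadjusted p under 0.05, and 0 with DESeq2). Of these calls, that of *Ndufs1* was lost most often (0.15, adjusted p = 0.0465, 11 of 19 alternatives), the calls of *Ndufaf5*, *Atp5l*, *Ndufb6* and *Atp5g3* were lost under 8, 5, 4 and 3, each of them when shRNA2 replicate 1 or 2 was left out, that of *Ndufa9* under 1 (without shRNA2 replicate 2), while those of *Ndufa4l2*, *Cox7a1*, *Ndufa6*, *Ndufa5*, *Ndufa11*, *Sdhc*, *Atp5g1*, *Ndufaf4* and *Ndufaf7* held under all 19.

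Promoters of the members were looked at because some members were called lower and others higher. RefSeq promoters (GRCm38.p6, 250 bases before to 50 after the start) were matched by symbol for 74 of 95 members. Binding motifs were searched as letters on both strands: GCGCATGCG for the respiratory factor NRF1, CCGGAAG for the ETS family that includes GABPA, AAGATGGCG for YY1, TCAAGGTCA for estrogen-related receptors, the CCAAT box, and ACGTG, the core of the hypoxia response element. The NRF1 motif was in 13.5% of the members and in 1.95% of the 27025 genes of the table, the ETS motif in 24.3% and 9.93%, and the YY1 motif in 10.8% and 1.64%. The estrogen-related receptor motif was in 2.70% and 0.466%, the CCAAT box in 44.6% and 41.1%, and the hypoxia core in 23.0% and 21.8%. Of the 33 members lower with shRNA2 that had a promoter, 4 held the NRF1 motif and 6 the ETS motif, of the 34 not called 3 and 11 did, and of the 6 higher 3 and 1 did. The hypoxia core was in 10 of the 33 lower, 3 of the 34 not called and 3 of the 6 higher, and the CCAAT box in 18, 12 and 3. YY1 was in 3, 5 and 0, and the estrogen-related receptor motif in 0, 1 and 1. These splits were not tested. The 3 promoters that follow, without the transcribed 50 bases, belong to a gene each of those higher (*Atp5g3*, *Ndufaf4*) and lower (*Uqcr10*) with both hairpins, and were taken because no annotated exon lies in them. Capitals mark motif matches on either strand, and adjoining matches run together.
Atp5g3, chr2:73911327-73911576, minus strand: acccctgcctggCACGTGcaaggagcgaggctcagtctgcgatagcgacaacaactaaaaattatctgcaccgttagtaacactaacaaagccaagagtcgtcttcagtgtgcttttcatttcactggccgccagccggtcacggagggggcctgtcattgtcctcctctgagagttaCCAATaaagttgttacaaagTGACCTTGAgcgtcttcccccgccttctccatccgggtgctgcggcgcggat
Ndufaf4, chr4:24897833-24898082, plus strand: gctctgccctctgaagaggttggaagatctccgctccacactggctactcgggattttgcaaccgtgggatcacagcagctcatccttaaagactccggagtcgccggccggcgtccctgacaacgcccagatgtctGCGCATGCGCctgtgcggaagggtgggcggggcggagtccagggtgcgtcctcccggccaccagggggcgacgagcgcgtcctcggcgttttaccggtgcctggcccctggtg
Uqcr10, chr11:4704345-4704594, minus strand: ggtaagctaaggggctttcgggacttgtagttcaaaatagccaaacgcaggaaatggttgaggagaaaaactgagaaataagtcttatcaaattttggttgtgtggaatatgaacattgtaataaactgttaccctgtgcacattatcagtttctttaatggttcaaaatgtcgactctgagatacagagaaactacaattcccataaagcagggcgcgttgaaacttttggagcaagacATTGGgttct
The capitals are, from left to right, the hypoxia core read on both strands, a CCAAT box and the estrogen-related receptor motif on the opposite strand in *Atp5g3*, the NRF1 motif on both strands in *Ndufaf4*, and a CCAAT box on the opposite strand in *Uqcr10*. These are matches of letters only.

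The genes around the complexes did not follow one direction. Of the 13 subunits encoded in mitochondrial DNA, 7 were tested, and the other 6 (*mt-Nd3*, *mt-Nd4l*, *mt-Co2*, *mt-Co3*, *mt-Atp6* and *mt-Atp8*) had at most 0.0901 CPM in any library. These 6 values are not read as expression, since of the 100-base windows of 5 of them 97.6% to 99.9% recur in another annotated gene (0% of *mt-Atp8*), and the part of such copies in the counts was not tested. Of the 7 tested, *mt-Nd4* (60.8%), *mt-Co1* (30.8%) and *mt-Nd2* (3.19%) share windows too, whereas *mt-Cytb*, *mt-Nd1*, *mt-Nd5* and *mt-Nd6* share 0%. With shRNA1, 4 of the 7 were higher and 0 lower in edgeR (0 also at an unadjusted p under 0.05 and with DESeq2), and 3 were higher and 2 lower with shRNA2. Over all tested genes 13.8% were higher and 17.1% lower with shRNA1, and 27.2% and 28.7% with shRNA2, near the 28.57% lower here. The gene of cytochrome b in complex III, *mt-Cytb*, had 583.7 and 687.2 CPM with nt-shRNA, 1302, 1221 and 1038 CPM with shRNA1, and 1680, 1595 and 1359 CPM with shRNA2. It rose by 0.90 (SE 0.0976, adjusted p = 1.9e-06 with edgeR) and 1.28 (SE 0.099, adjusted p = 4.1e-09). The complex I gene *mt-Nd1* rose by 0.35 and 0.70 (adjusted p = 0.00375 and 1.2e-06), whereas *mt-Nd6* and *mt-Nd5* were lower with shRNA2, by -0.24 and -0.20 (adjusted p = 0.0119 and 0.0278).

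Among assembly factors outside the rule, 1 was higher and 8 lower of 42 tested with shRNA1, and 9 were higher and 9 lower with shRNA2. The 19.05% lower with shRNA1 was near the 17.1% of all tested genes, and the 21.43% each way with shRNA2 was below 27.2% and 28.7%. *Cox18*, an insertase for complex IV, fell by -0.39 and -0.73, and *Uqcc2*, a factor for cytochrome b, by -0.33 and -0.63. *Coa5*, which acts in complex IV assembly, stood at 0.17 with shRNA1, which did not pass (adjusted p = 0.0552), and rose by 0.54 with shRNA2, and *Lrpprc*, which stabilizes mitochondrial mRNAs, rose by 0.41 and 0.51. Of 15 genes of ubiquinone synthesis and cytochrome c, 3 were higher and 1 lower with shRNA1 (13.8% and 17.1% of all tested genes), and 4 were higher and 5 lower with shRNA2 (26.67% and 33.33%, near the shares of all tested genes). *Cycs*, cytochrome c itself, had 97.1 and 85.0 CPM with nt-shRNA, 126.0, 120.6 and 112.6 CPM with shRNA1, and 133.6, 137.8 and 133.3 CPM with shRNA2, a rise of 0.39 and 0.57 (adjusted p = 0.00027 and 1.3e-06 with edgeR). *Pdss1*, which makes the ubiquinone tail, rose by 0.45 and 1.02, *Coq10a*, a chaperone of ubiquinone, fell by -0.39 and -0.77, and *Coq2* fell with shRNA2 (-0.48).

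Of 7 tested enzymes that also reduce ubiquinone, 0 were higher in edgeR (1 at an unadjusted p under 0.05, and 0 with DESeq2) and 3 lower with shRNA1, and 2 were higher and 3 lower with shRNA2. Over all tested genes 13.8% were higher and 17.1% lower with shRNA1, and 27.2% and 28.7% with shRNA2, so that the 28.57% higher with shRNA2 was at the share of all genes. *Dhodh* of pyrimidine synthesis (-0.39 and -0.42) and *Gpd2* of the glycerol phosphate shuttle (-0.20 and -0.28) fell with both hairpins, and *Prodh* (0.51) and *Etfa* (0.21) rose with shRNA2. Of 7 carriers of ADP, ATP and phosphate, *Vdac1*, the outer membrane channel, fell (-0.22 and -0.36), *Slc25a31*, a testis-type ADP/ATP carrier, rose (0.86 and 0.53), and *Slc25a3*, the phosphate carrier, rose with shRNA2 (0.16). Regulators of OXPHOS genes and of mitochondrial DNA transcription were mostly higher with shRNA2, with 10 higher and 2 lower of 16 (27.2% and 28.7% of all tested genes), against 2 higher and 1 lower with shRNA1 (13.8% and 17.1% of all tested genes). *Twnk*, the mitochondrial helicase, rose by 0.32 and 0.63, and *Esrrb*, an estrogen-related receptor and pluripotency factor, rose with shRNA2 (0.39). *Tfb1m*, which methylates mitochondrial ribosomal RNA, fell by -0.37 and -0.57, and *Polg*, the mitochondrial DNA polymerase, fell with shRNA2 (-0.31). Mitochondrial ribosomal proteins gave 3 higher and 11 lower of 77 with shRNA1, and 20 higher and 15 lower with shRNA2. These shares (3.9% and 14.29%, 25.97% and 19.48%) were at or below those of all tested genes.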

How the data were processed

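Poly(A)-selected RNA of 8 cultures of R1 mESCs was sequenced as 100-base paired reads. The authors aligned reads to GRCm38 (mm10) with STAR and deposited raw counts per gene, summed over exons of a GENCODE annotation with featureCounts 1.6.2 per the file header, which shows no strand option, so overlapping genes on opposite strands could share reads. All columns of the deposited count table were used (0 left out). Gene coordinates and GC content came from GENCODE M21 on GRCm38 (GC from its transcripts, since no genome was used), and promoters from RefSeq (GRCm38.p6). Gene lengths were those of the count table, which cover all annotated exon bases of a gene.

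Sample titles gave the groups. All 8 libraries entered 1 fit of the counts in edgeR 4.0.16 (R 4.3.3) with 1 coefficient per group, TMM scaling and filterByExpr (minimum count 10), and tested by quasi-likelihood with Benjamini-Hochberg adjustment over 17445 genes. The study itself tested with DESeq2, used here (1.42.0) as an alternative. The standard error was the log2 fold change divided by the square root of F. The procedure was tested on simulated data. Replicate libraries differed by more than counting noise. Floors of 3 counts cover counting error only. p-values measure the spread between the libraries labelled as biological replicates, 2 of them in the control.

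The members and gene lists were chosen with earlier results of these data known, so no test over a list is given. Members named with values were, in each complex, the 3 called higher and the 3 called lower with the smallest adjusted p with shRNA2, the called members with the extreme log2 fold changes with shRNA1, members called in opposite directions, all genes of the isoform groups and of complex II, and the core catalytic subunits, 1 of which is not reported here by name. Of each other list, 2 genes per direction with the smallest adjusted p with shRNA2 were named. Alternatives were DESeq2, its size factors, library size alone, other filters, only the groups compared, offsets for gene length or GC content, a replicate block, and leaving out each library.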

Additional observations from a re-analysis of the deposited data

How the results depend on the processing

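With library size alone, the median of all tested genes shifted to 0.11 with shRNA1 and 0.09 with shRNA2, and calls over all genes went from 2407 higher and 2981 lower to 4098 higher and 1718 lower for shRNA1, and from 4748 higher and 5010 lower to 5845 and 4080 for shRNA2. Members lower with shRNA1 then fell from 38 to 23, and members higher with shRNA2 went from 6 to 15. The members' medians became -0.053 (shRNA1) and -0.069 (shRNA2), those of complexes I to V -0.052, -0.19, -0.020, -0.13 and -0.043 for shRNA1, -0.014, -0.31, -0.076, -0.18 and -0.023 for shRNA2, and that of complex IV between the hairpins -0.067. The sums of complexes I to V stood 7.05%, 11.4%, 1.09%, 7.28% and 4.001% below the control with shRNA1, and 5.90%, 17.5%, 2.47%, 7.40% and 4.15% with shRNA2.

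With offsets for gene length, the medians were -0.12 for all members, -0.12 for complex I and -0.17 for complex IV with shRNA1, and -0.12 for all members, -0.36 for complex II, -0.12 for complex III, -0.21 for complex IV and -0.058 for complex V with shRNA2, where 10 members were higher. Complex IV between the hairpins was at -0.069. With offsets for GC content, 2 members were higher with shRNA1 and 11 with shRNA2, the shRNA2 medians were -0.036, -0.37, -0.078 and -0.24 for complexes I to IV (main value of complex I -0.10), and between the hairpins 14 members were lower and complex IV was at -0.013. *Ndufv1* changed sign with shRNA2 under GC offsets (0.014) and under these with the replicate block (0.025). With at least 10 counts in every library, 10 members were higher with shRNA2, and the medians were -0.14 for complex I with shRNA1 and -0.14 for complex III with shRNA2. With only the groups compared, complex I was at -0.14 with shRNA1. The cause of these shifts was not tested.

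Between the hairpins, libraries with the same replicate number correlated at 0.0645 to 0.1077 in their deviations from the group means. Those with different numbers correlated lower, at -0.1102 to 0.0504. Same-numbered hairpin and nt-shRNA libraries correlated at -0.0473 to 0.0221. The main fit did not pair libraries by number, and whether the numbers mark a shared batch was not tested. The study compared same-numbered replicates in its qPCR, and no such pairing is stated for the sequenced libraries. With the replicate block, 11 members were higher with shRNA2, beside 6 without it. With the replicate block and length offsets, the medians were -0.13 for all members, -0.11 for complex I and -0.15 for complex IV with shRNA1, and -0.11 for all members, -0.37 for complex II, -0.11 for complex III and -0.21 for complex IV with shRNA2, where 11 members were higher, and -0.065 for complex IV between the hairpins. With the replicate block and GC offsets, 12 members were higher with shRNA2, the medians of complexes I, II and III were -0.028, -0.37 and -0.0995, and between the hairpins 15 members were higher, 14 lower and complex IV was at -0.0096.

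Leaving out each library in turn, members higher and lower ranged over 0 to 4 and 23 to 44 with shRNA1, 5 to 10 and 32 to 46 with shRNA2, and 4 to 11 and 6 to 9 between the hairpins. The medians of all members ranged from -0.21 to -0.13 with shRNA1 and from -0.21 to -0.11 with shRNA2, that of complex I from -0.20 to -0.13 with shRNA1, and those of complexes III and IV from -0.19 to -0.12 and from -0.30 to -0.18 with shRNA2. Complex IV between the hairpins ranged from -0.072 to 0.034, with positive values without shRNA1 replicate 3 (0.034) and without shRNA2 replicate 3 (0.0066). Of the calls of members named by the rule, 16 of 29 with shRNA1, 26 of 34 with shRNA2 and 9 of 16 between the hairpins held under all 19 alternatives. Depth limits the isoforms at few counts, such as *Cox4i2* and *Cox7b2*, and *Cox6a2*, *Cox8b* and *Cox8c* could not be tested.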
